A study of Mus musculus with 6 samples.

Results

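The pair described here consists of the ATAC-seq libraries labelled Norm-Pro and Hyp-Imm, 2 of the 6 libraries of the series (4 of ATAC-seq, 2 of ChIP-seq for Tfcp2l1). All come from mouse embryonic fibroblasts (MEFs) of C57BL/6J embryos at E13.5, from which the head and the red organs had been taken out, so the starting cultures hold several cell types of the trunk. By its label, Norm-Pro holds MEFs at passage 1 in normoxia (20% oxygen), and Hyp-Imm holds immortalized MEFs in hypoxia (3% oxygen). The study, not the label, describes the former as proliferating and the latter as kept under serial passage. The labels give no passage number for the immortalized culture. The names of the deposited files assign these libraries differently: by them, the library labelled Norm-Pro is the immortalized hypoxic one and Hyp-Imm the senescent normoxic one, while the other 2 ATAC-seq libraries, labelled Norm-Sen and Hyp-Pro, would both be at passage 1. The labels are used for all names below. Open, said of a region or promoter in a library, means that a peak was called there. Under the file names each set of regions keeps its members and takes the other name. Then "open in Norm-Pro only" reads as having a peak in the immortalized culture and none detected in the senescent one.

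The members are all peaks of these 2 libraries on the 19 autosomes, 68239 in Norm-Pro and 37137 in Hyp-Imm, of 69122 and 37770 on all chromosomes. The other libraries held 58518 (Norm-Sen) and 45139 (Hyp-Pro) autosomal peaks. Peaks that overlapped by at least 1 bp were joined into 96999 regions. There is 1 library per condition, so no difference below has a replicate check and none was tested. Brackets after a share give its 95% interval by the exact Clopper-Pearson method, for counting error alone. A difference between the libraries may be one between these 2 preparations.

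ATAC-seq uses the Tn5 transposase, which cuts DNA that is not wrapped around a nucleosome. Promoters of active and poised genes stand open in nearly every cell type, whereas distal elements such as enhancers open in a more cell-type-specific way, often where AP-1 binds in fibroblasts. CTCF binds insulators and anchors chromatin loops. An open promoter does not by itself mean that the gene is transcribed.

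The sequences at strong sites of the 3 groups of regions are shown as examples of what lay under the peaks. Each is given as the plus strand of GRCm38, up to 150 bases around the summit. Capitals in the promoters mark matches to any of 15 motifs searched on both strands, here the Sp/Klf box (GGGCGG, or CCGCCC on the other strand), the NFY box (CCAAT or ATTGG) and the AP-1 site (TGACTCA or TGAGTCA), with no mismatch. In the 200 bp around the centre, these stood in 14.9%, 23.4% and 5.50% of all regions of the pair. The promoter of Adss (purine synthesis) at chr1:177796551-177796700 and that shared by Chchd7 and Plag1 at chr4:3938497-3938646 were open in both libraries and held 4 and 6 Sp/Klf boxes.
Adss: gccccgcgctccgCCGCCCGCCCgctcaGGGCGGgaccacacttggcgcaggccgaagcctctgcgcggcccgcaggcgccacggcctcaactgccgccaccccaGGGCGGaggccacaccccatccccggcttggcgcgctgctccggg
Chchd7 and Plag1: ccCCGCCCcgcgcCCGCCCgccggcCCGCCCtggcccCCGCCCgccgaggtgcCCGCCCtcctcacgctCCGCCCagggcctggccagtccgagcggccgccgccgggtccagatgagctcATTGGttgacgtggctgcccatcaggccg
The strongest promoters open in Norm-Pro and not in Hyp-Imm were those between Cenpq (a centromere protein) and Mut (methylmalonyl-CoA mutase) at chr17:40934614-40934763, of Cep83 (a centriole protein) at chr10:94688616-94688765 and of Mbnl2 (a splicing factor) at chr14:120275549-120275698. They too carried Sp/Klf boxes, the first with 3 NFY boxes and the third with 1.
Cenpq and Mut: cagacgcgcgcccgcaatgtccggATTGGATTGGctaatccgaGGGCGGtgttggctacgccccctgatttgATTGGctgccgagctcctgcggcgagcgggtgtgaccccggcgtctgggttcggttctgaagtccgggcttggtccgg
Cep83: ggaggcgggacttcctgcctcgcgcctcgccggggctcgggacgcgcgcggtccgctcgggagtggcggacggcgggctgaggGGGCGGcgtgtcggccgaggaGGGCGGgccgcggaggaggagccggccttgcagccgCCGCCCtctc
Mbnl2: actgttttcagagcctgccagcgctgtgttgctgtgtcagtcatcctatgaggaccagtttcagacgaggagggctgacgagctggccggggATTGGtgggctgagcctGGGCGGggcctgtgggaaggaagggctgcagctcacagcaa
The strongest in the opposite direction lay at the histone gene Hist1h2be (chr13:23621634-23621783), at Asb13 (chr13:3633957-3634106) and at Galnt15, a glycosyltransferase gene (chr14:32030075-32030224). The first held no match to the 15 motifs, the second an AP-1 site and an Sp/Klf box, and the third an NFY box.
Hist1h2be: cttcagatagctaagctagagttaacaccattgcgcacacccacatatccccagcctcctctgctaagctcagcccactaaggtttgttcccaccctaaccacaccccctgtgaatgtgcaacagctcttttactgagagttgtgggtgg
Asb13: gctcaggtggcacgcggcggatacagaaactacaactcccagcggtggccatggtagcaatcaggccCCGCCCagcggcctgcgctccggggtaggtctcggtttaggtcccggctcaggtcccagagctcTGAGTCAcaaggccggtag
Galnt15: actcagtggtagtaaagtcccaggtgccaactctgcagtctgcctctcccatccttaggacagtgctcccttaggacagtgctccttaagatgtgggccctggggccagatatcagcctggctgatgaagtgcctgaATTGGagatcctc
Away from promoters, the strong regions of Hyp-Imm alone shown here held simple repeats, which the capitals mark. They lay 64218 bp from the TSS of Gabrg1 (chr5:70778341-70778457) and 51759 bp from that of Glg1 (chr8:111207383-111207532). The first held a GT run, and the second CT and CA runs.
Gabrg1: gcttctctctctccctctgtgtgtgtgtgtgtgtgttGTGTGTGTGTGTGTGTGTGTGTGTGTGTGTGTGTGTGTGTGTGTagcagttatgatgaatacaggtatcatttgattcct
Glg1: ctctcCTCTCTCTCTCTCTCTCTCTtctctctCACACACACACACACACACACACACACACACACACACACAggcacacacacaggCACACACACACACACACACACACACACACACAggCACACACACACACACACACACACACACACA
Of the strong distal regions of Norm-Pro alone, one upstream of the TSS of the amino acid transporter gene Slc38a2 (chr15:96709658-96709807) held 5 Sp/Klf boxes, and one whose nearest TSS was that of Gm14496 (chr2:181929271-181929420) ended in GAA and GAG repeats and held no match to the motifs.
Slc38a2: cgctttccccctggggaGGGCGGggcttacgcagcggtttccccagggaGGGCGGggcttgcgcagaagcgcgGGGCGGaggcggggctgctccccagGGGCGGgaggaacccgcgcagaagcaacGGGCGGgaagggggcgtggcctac
Gm14496: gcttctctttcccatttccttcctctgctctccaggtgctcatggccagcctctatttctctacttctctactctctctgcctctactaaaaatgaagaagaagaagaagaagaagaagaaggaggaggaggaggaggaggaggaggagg

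Few regions were common to the 2 libraries. Of the 96999 regions, 7651 were shared (7.89%), 60368 were open in Norm-Pro only (62.2%) and 28980 in Hyp-Imm only (29.9%). Counted by peaks, 11.5% (11.3 to 11.8) of Norm-Pro peaks and 21.9% (21.5 to 22.4) of Hyp-Imm peaks overlapped a peak of the other library. A further 6.00% and 6.53% had one within 500 bp. With the same number of peaks per library, the 37137 with the highest −log10 q, 6718 of 66919 regions were shared (10.0%), and the rest split into 30279 of Norm-Pro (45.2%) and 29922 of Hyp-Imm (44.7%), a balance that the equal numbers fix.

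The shared regions were mostly promoters and the others mostly not. A TSS lay within 1 kb of 70.9% (69.8 to 71.9) of the shared regions, 15.4% (15.1 to 15.7) of those of Norm-Pro only and 7.70% (7.39 to 8.01) of those of Hyp-Imm only. With equal numbers of peaks these shares were 75.6%, 22.3% and 8.62%. The median distance to the nearest TSS was 134 bp, 37038 bp and 48120 bp. The regions of Hyp-Imm only lay between genes in 53.5% of cases and in introns in 35.7%, those of Norm-Pro only in 48.5% and 32.5%, and the shared ones in 18.2% and 9.91%.

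**Figure D1:**
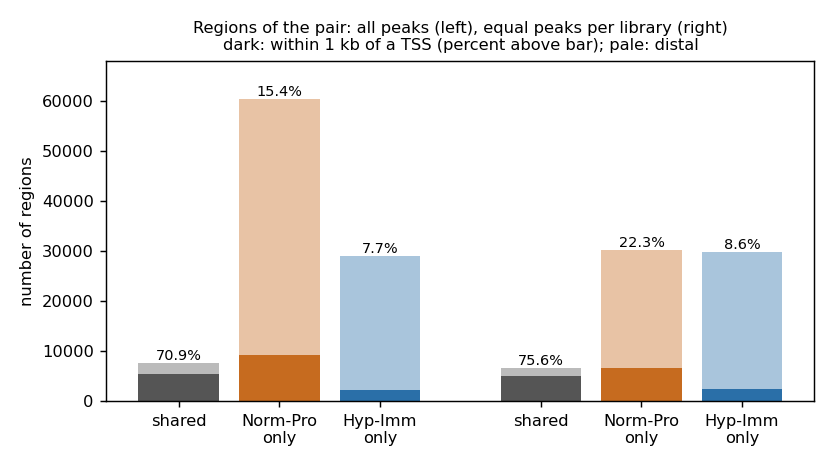
Number of regions (vertical axis) that were shared, open in Norm-Pro only or open in Hyp-Imm only, with all peaks on the left and 37137 peaks per library on the right. The dark part of each bar lies within 1 kb of a TSS; it makes up 70.9% of the shared bar and 7.70% of the Hyp-Imm only bar with all peaks.

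Base composition followed the same order. In the central 200 bp the median GC content was 66% for shared regions, 52.5% for Norm-Pro only and 50% for Hyp-Imm only, and the observed over expected ratio of CpG was 0.782, 0.189 and 0.154. More than 50% of these bases were repeat-masked in 6.23%, 20.6% and 27.3% of the regions.

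The libraries differed in depth, which bears on each of these counts. MACS2 gives the fold of a peak as the pileup over a background, and at the genome-wide background the folds are whole multiples of a step that shrinks as depth grows. The step was 0.447 in Norm-Pro and 0.692 in Hyp-Imm, from 30.4% and 24.2% of the peaks, which gives a background of 1.24 and 0.445 reads per position, so that Hyp-Imm had 35.9% of the background of Norm-Pro. Read in the same way, the background was 1.77 in Norm-Sen and 0.956 in Hyp-Pro, so Hyp-Imm was the shallowest of the 4 ATAC-seq libraries. The lowest summit on such a step held 6 reads in Norm-Pro and 4 in Hyp-Imm. A −log10 q of at least 5 was reached by 13396 peaks of Norm-Pro (19.6%) and 4092 of Hyp-Imm (11.02%), and one of at least 10 by 2985 and 460. The q values were adjusted within each library, so they rank its peaks and their sizes are not comparable between libraries. A region without a peak in Hyp-Imm is therefore one not detected at this depth, and the part of depth in its absence was not tested.

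Overlap depended on the strength of a peak. Of the 1000 strongest Norm-Pro peaks, 89.5% (87.4 to 91.3) overlapped a Hyp-Imm peak; of those ranked 10001 to 20000, 11.2% (10.6 to 11.9) did. Of the 1000 strongest Hyp-Imm peaks, 84.4% (82.0 to 86.6) overlapped a Norm-Pro peak, and of those ranked 10001 to 20000 19.1% (18.4 to 19.9). Promoter and distal peaks parted here. At ranks 2001 to 5000, 86.4% of the 1160 promoter peaks of Hyp-Imm had a partner in Norm-Pro, against 14.7% of the 1840 distal ones. In the other direction the shares were 61.8% of 2265 and 31.02% of 735. The promoter part also differed: promoters made up 82.9% of the 1000 strongest peaks of Norm-Pro and 68.6% of those of Hyp-Imm, and 50.3% against 29.1% at ranks 5001 to 10000.

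**Figure D2:**
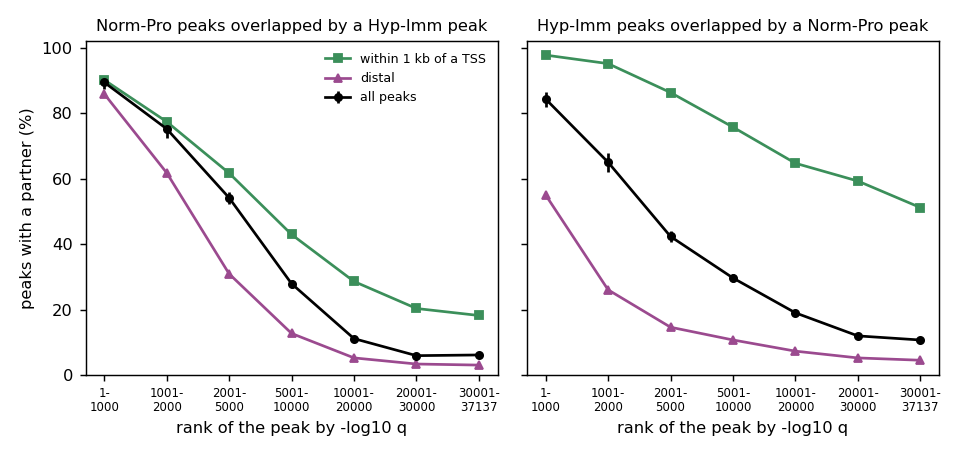
Percent of peaks of one library that overlap a peak of the other (vertical axis) by the rank of the peak (horizontal axis), for Norm-Pro peaks on the left and Hyp-Imm peaks on the right; bars on the black points are 95% exact intervals. The share falls with rank in both panels, except for the last bin of Norm-Pro (6.26% after 6.05%), and promoter peaks of Hyp-Imm keep a partner at lower ranks than its distal peaks, 86.4% against 14.7% at ranks 2001 to 5000.

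The strongest distal peaks of Hyp-Imm were rich in simple repeats. A run was counted where the 200 bp window centred on the region (for ranks, on the summit) held 10 or more units of CA, GT, GA or CT in a row, or 3 or more of TTAGGG or CCCTAA; this rule was set after the sequences had been seen. Among the 100 strongest distal regions open in Hyp-Imm only, 92 held a run, 82 of them with CA or GT and 21 with GA or CT. Of the 100 strongest of Norm-Pro only, 16 did, and of the shared ones 4. Over all distal regions the shares were 16.1% (15.7 to 16.6) of 26750 in Hyp-Imm only, 7.61% (7.38 to 7.84) of 51095 in Norm-Pro only and 9.87% (8.66 to 11.2) of 2230 shared.

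The excess followed rank and stood in Hyp-Imm against all other libraries. Of its 1000 strongest distal peaks 50.9% (47.8 to 54.0) held a run, against 11.9% (9.96 to 14.1) in Norm-Pro, 4.50% (3.30 to 5.97) in Norm-Sen and 17.5% (15.2 to 20.0) in Hyp-Pro. At ranks 10001 to 20000 the shares were 11.2%, 9.57%, 4.58% and 7.91%. Within regions of like composition the order of the specific sets held: at a GC content of 40 to 50%, 23.1% (22.3 to 23.8) of the distal Hyp-Imm only regions and 13.3% (12.8 to 13.8) of the Norm-Pro only ones held a run, and at 50 to 60% 9.36% (8.83 to 9.92) and 4.79% (4.54 to 5.05). The shared distal regions were not lower than those of Hyp-Imm only there, at 25.5% (21.2 to 30.2) and 10.2% (8.45 to 12.1).

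**Figure D3:**
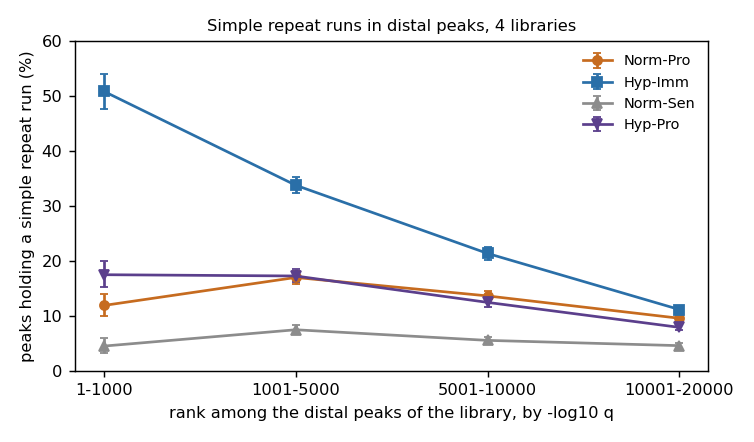
Percent of distal peaks holding a simple repeat run (vertical axis) by rank within the library (horizontal axis) in the 4 ATAC-seq libraries; bars are 95% exact intervals. Hyp-Imm stands above the others among its strongest peaks, at 50.9% in the first 1000, and comes close to Norm-Pro and Hyp-Pro by ranks 10001 to 20000.

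Repeated sequence in general was also commoner there. The central 30 bases of a region occurred elsewhere in the 21 reference chromosomes for 77 of the 100 strongest distal Hyp-Imm only regions, 17 of Norm-Pro only and 44 of the shared ones. Over all distal regions this held for 19.6% (19.2 to 20.1), 11.8% (11.5 to 12.0) and 16.2% (14.7 to 17.8). At promoters it was rarer, 5.43%, 1.53% and 0.867%. Where the repeated sequence spans a whole read, that read can be placed at more than 1 site. Read placement was not examined, so the position of these peaks may be uncertain.

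The strongest shared regions with a TSS within 100 kb were not promoters either. None of the 10 lay within 1 kb of a TSS, and all 10 also had a peak in Norm-Sen and in Hyp-Pro. The first, 38273 bp from the TSS of Filip1l (chr16:57391368-57391732), had a −log10 q of 168.5 in Norm-Pro, 136.4 in Hyp-Imm, 154.7 in Norm-Sen and 169.6 in Hyp-Pro. In it 54.2% of the 30-base words occurred elsewhere. In the sixth, upstream of Col19a1 (chr1:24613009-24613224), 84.0% of the words were found in the mitochondrial genome. By contrast, the 10 strongest regions of Norm-Pro only were all promoters, without a repeated word in any, and all 10 had a peak in both other libraries. Of the 10 strongest of Hyp-Imm only, 8 were distal, and 8 had no peak in any other ATAC-seq library; that at the promoter of Actr1a, a dynactin subunit, had one in both Norm-Sen and Hyp-Pro.

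At the level of genes, Norm-Pro had the wider set of open promoters. Of 20720 autosomal genes with a protein-coding TSS, 6342 had a peak within 1 kb of one in both libraries (30.6%), 4873 in Norm-Pro only (23.5%), 800 in Hyp-Imm only (3.86%) and 8705 in neither (42.0%). With equal numbers of peaks these were 6029 (29.1%), 3904 (18.8%), 1113 (5.37%) and 9674 (46.7%), so the direction stayed with Norm-Pro. Genes with a common bidirectional promoter count once each. By the file names the same counts read as 4873 promoters open in the immortalized culture alone, and 800 in the senescent one alone.

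Open promoters in Hyp-Imm were close to a subset of those in Norm-Pro, and nearly as close to one of those in the other ATAC-seq libraries. The 6342 promoters common to the pair made up 56.5% of the 11215 open in Norm-Pro and 88.8% (88.0 to 89.5) of the 7142 open in Hyp-Imm. Of those 7142, 6167 were open in Norm-Sen and 5984 in Hyp-Pro. With equal numbers of peaks, 84.4% of the Hyp-Imm promoters were open in Norm-Pro. Hyp-Imm promoters with a −log10 q of 5 to 10 there were open in Norm-Pro in 96.6% of 2054 cases (95.7 to 97.3), and those with one under 3 in 78.4% of 1697 (76.4 to 80.4). In the other direction, Norm-Pro promoters with a −log10 q of 5 to 10 were open in Hyp-Imm in 59.4% of 4603 cases (57.9 to 60.8) and those of 10 to 20 in 84.1% of 2615 (82.7 to 85.5). The same Norm-Pro promoters of 5 to 10 were open in Norm-Sen in 89.1% and in Hyp-Pro in 85.7%.

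Promoters open in Norm-Pro only recurred more often in the other ATAC-seq libraries than those of Hyp-Imm only. Of the 4873 promoters open in Norm-Pro only, 51.6% (50.2 to 53) were open in both Norm-Sen and Hyp-Pro and 19.1% (18.1 to 20.3) in neither of them. Of the 800 open in Hyp-Imm only, 22% (19.2 to 25.03) were open in both and 48.4% (44.9 to 51.9) in neither. The median −log10 q of the 2 classes was 4.82 in Norm-Pro and 3.15 in Hyp-Imm, and the part of strength was not tested. Among all open promoters with a −log10 q under 3 the order was the reverse. Those of Hyp-Imm were open in Norm-Sen in 74.7% and in Hyp-Pro in 70.1%, those of Norm-Pro in 48.9% and 43%. Promoters open in both libraries of the pair were open in both others in 85.2%. Taken over genes open in at least 1 of 2 libraries, Norm-Pro and Hyp-Imm shared 52.8% (51.9 to 53.7) of promoters. Hyp-Imm shared 52.7% with Norm-Sen and 53.4% with Hyp-Pro, while the 3 pairs without Hyp-Imm shared 69.5 to 72.6%. With equal numbers of peaks the 3 pairs with Hyp-Imm gave 53.9 to 54.6% and the others 66.4 to 69.7%. Hyp-Imm was also the shallowest library. Equal numbers of peaks do not make depth equal, and the part of depth was not tested. The intervals for the pair and for Hyp-Imm with Norm-Sen and Hyp-Pro, with all peaks, were 51.9 to 53.7, 51.8 to 53.6 and 52.5 to 54.3%. They rest on the same Hyp-Imm promoters, so they cannot decide whether these shares differ.

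Distal regions were seldom found again. Of the 51095 distal regions of Norm-Pro only, 87.8% (87.5 to 88.1) had no peak in Norm-Sen or Hyp-Pro, and of the 26750 of Hyp-Imm only 93.8% (93.5 to 94.1). Of the 2230 shared distal regions 41.9% (39.9 to 44.0) had none. Leaving out regions with a run or with repeated central bases, the share with a peak in at least 1 of the 2 other libraries was 12.7% for Norm-Pro only and 6.45% for Hyp-Imm only.

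Promoter composition also set the classes apart. In the 200 bp upstream of the first TSS, the median GC content was 62.5% for promoters open in both, 58% for Norm-Pro only, 55% for Hyp-Imm only and 48.5% for neither, with CpG ratios of 0.778, 0.662, 0.486 and 0.217. Of the promoters open in Norm-Pro, 39.2% (35.7 to 42.8) of those under 45% GC were also open in Hyp-Imm, against 67.6% (66.1 to 69.0) of those of 65% or more. Summits within 1 kb of a TSS sat in the same place in both libraries, at a median of -5 bp in Norm-Pro and -9 bp in Hyp-Imm, with 65.8% and 68.0% of them within 200 bp.

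The strongest promoters of each kind give the same picture gene by gene. The promoter of Cenpq and Mut had a −log10 q of 25.8 and a 13.3-fold pileup in Norm-Pro, no peak in Hyp-Imm, 7.26 in Norm-Sen and 3.84 in Hyp-Pro. That of Mdh1, the cytosolic malate dehydrogenase, with Wdpcp had 20.4 in Norm-Pro, none in Hyp-Imm, 26.2 in Norm-Sen and 9.23 in Hyp-Pro. Plpp1, a phospholipid phosphatase gene, had 21.3, none, 20.4 and 10.96 in the same order. All 10 of the strongest Norm-Pro only promoters had a peak in both Norm-Sen and Hyp-Pro, so that Hyp-Imm was the library without one. The other 7 ranged from 18.1 at Eid1 to 23.2 at Cep83 in Norm-Pro.

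In the opposite direction, Hist1h2be, a replication-dependent histone gene, had a −log10 q of 10.2 and a 9.21-fold pileup in Hyp-Imm, no peak in Norm-Pro or Norm-Sen and 4.65 in Hyp-Pro. Asb13, coding for a SOCS box protein, had 9.65 in Hyp-Imm, 10.9 in Norm-Sen and 4.71 in Hyp-Pro, and no peak in Norm-Pro. For 5 of the 10 strongest Hyp-Imm only promoters, among them Asb13, Map7d1, Kcnd3 and Rac3, both other libraries had a peak, so that Norm-Pro was the library without one. Agap2 and Lrrn4 had a peak in Hyp-Imm alone of the 4, of 7.45 and 7.12. Sass6, which builds the centriole cartwheel, had 8.12 in Hyp-Imm and 5.65 in Hyp-Pro.

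**Figure D4:**
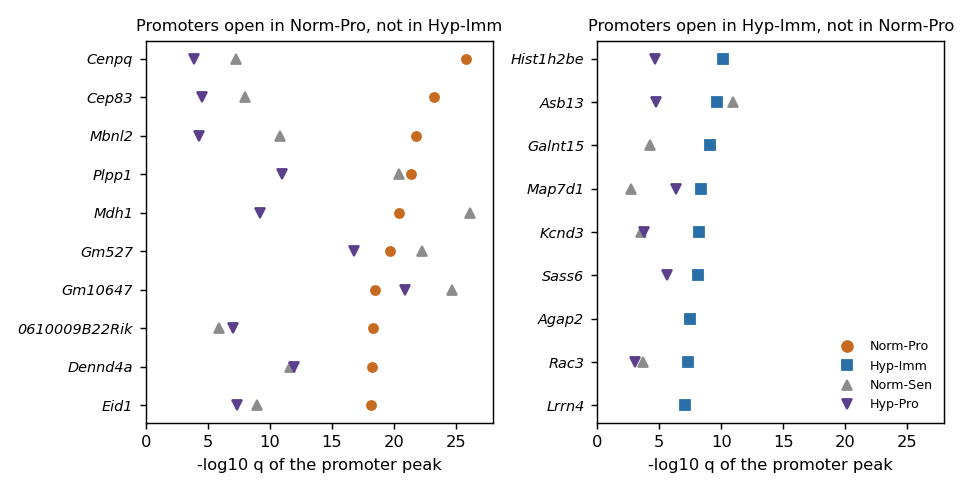
The −log10 q of the strongest promoter peak (horizontal axis) in each of the 4 libraries for the 10 strongest promoters open in Norm-Pro and not in Hyp-Imm (left) and for 9 of the 10 strongest of the reverse (right); a missing symbol means no peak. The left set lies between 18.1 and 25.8 in Norm-Pro and the right set between 7.12 and 10.2 in Hyp-Imm.

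The strongest promoter peaks common to the pair lay in repeated sequence. The predicted genes Gm10717, Gm10800, Gm10801, Gm21738 and Gm10722 and the multicopy gene Duxf3 led this list, with 30.8 to 63.0% of their 30-base words found elsewhere. Gm10717 had a −log10 q of 63.5 in Norm-Pro, 55.5 in Hyp-Imm, 67.6 in Norm-Sen and 53.7 in Hyp-Pro. Next came Adss with 30.5, 18.4, 17.5 and 24.5, and Chchd7 with 29.0, 17.5, 20.1 and 32.7.

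The gene lists followed the background in direction. In the share of Norm-Pro promoters also open in Hyp-Imm, only the secreted factors of senescent cells stood clear of it. In 6 of the 16 lists no promoter was open in Hyp-Imm only, where 3.86% of all genes were, and in all 16 more promoters were open in Norm-Pro only than in Hyp-Imm only. Of the promoters open in Norm-Pro, 56.5% (55.6 to 57.5) were also open in Hyp-Imm over all genes. By list this share ran from 10.5% (1.30 to 33.1) for the secreted factors of senescent cells to 75% (50.9 to 91.3) for the AP-1 factors. The intervals of all lists but the secreted factors held the 56.5% of all genes. The 23.5% open in Norm-Pro only is a share of all promoters, 42.0% of which were open in neither library. These are descriptions of counts in 1 library each.

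Among regulators of proliferation, 28 of 49 cell cycle and replication genes had a promoter open in both (57.1%, against 30.6% of all genes). A further 17 were open in Norm-Pro only (34.7%, against 23.5%) and 0 in Hyp-Imm only (against 3.86%). The 0 allows a share of up to 6.12%. Here and below this limit is 3 counts over the number of genes, not the exact interval. Ccna2, Ccnb1 and Mki67 were open in both. Rrm1, a ribonucleotide reductase subunit, had a −log10 q of 12.2 in Norm-Pro, none in Hyp-Imm, 6.04 in Norm-Sen and none in Hyp-Pro. Gmnn, the replication licensing inhibitor geminin, had 7.62, none, 5.03 and 9.10, and the mitotic kinase gene Aurka 7.57, none, 7.51 and 2.88. Of the list's promoters open in Norm-Pro, 62.2% (46.5 to 76.2) were also open in Hyp-Imm, against 56.5% of those of all genes. With equal numbers of peaks the list held 26, 13 and 2 genes.

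Of 26 CDK inhibitors and p53 pathway genes, 17 were open in both (65.4%), 7 in Norm-Pro only (26.9%) and 1 in Hyp-Imm only (3.85%), against 30.6%, 23.5% and 3.86% of all genes. Cdkn2a, which codes for p16 and Arf, had a −log10 q of 6.08 in Norm-Pro, 3.32 in Hyp-Imm, 10.7 in Norm-Sen and 5.29 in Hyp-Pro. Its neighbour Cdkn2b had 15.1, 4.84, 9.84 and 3.43. Cdkn1a, which codes for p21, had 5.92 in Norm-Pro, none in Hyp-Imm, 2.57 in Norm-Sen and 4.93 in Hyp-Pro. Trp53 itself had 5.94, none, 10.0 and 8.60, and the DNA repair gene Xpc 12.5, none, 8.26 and 13.52. The death receptor gene Fas was the reverse case, with none in Norm-Pro, 4.76 in Hyp-Imm, 3.51 in Norm-Sen and none in Hyp-Pro. The pair thus shared the Cdkn2a and Cdkn2b promoters, while Cdkn1a and Trp53 were among the 7 not detected in Hyp-Imm. Over all genes, 59.4% (57.9 to 60.8) of Norm-Pro promoters with a −log10 q of 5 to 10 were open in Hyp-Imm. A missing peak at that strength was therefore common.

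The secreted factors of senescent cells were the list with the least in common. Of 39 genes 2 were open in both (5.13%, against 30.6% of all genes), Igfbp4 and Plau. Another 17 were open in Norm-Pro only (43.6%, against 23.5%), 1 in Hyp-Imm only (2.56%, against 3.86%) and 19 in neither (48.7%, against 42.0%). With equal numbers of peaks the counts were 2, 14, 1 and 22. The chemokine gene Ccl2 had a −log10 q of 8.40 in Norm-Pro, none in Hyp-Imm, 4.93 in Norm-Sen and none in Hyp-Pro. The cytokine gene Il6 had 6.02, none, 4.02 and 3.96, and Csf1, the macrophage growth factor, 6.34, none, 4.23 and 3.88. Timp2, a metalloprotease inhibitor gene, had 6.43, none, 3.13 and 7.63. Cxcl5, a neutrophil chemokine gene, had none in Norm-Pro, 5.94 in Hyp-Imm, 2.89 in Norm-Sen and 3.31 in Hyp-Pro. The open promoters of this list were weaker than most, at a median −log10 q of 4.42 in Norm-Pro against 6.49 over all genes, and Norm-Pro promoters of 3 to 5 were open in Hyp-Imm in 35.7% of cases overall (34.0 to 37.4). By the labels these 17 promoters were open in passage 1 MEFs and not in immortalized ones; by the file names they were open in the immortalized culture and not in the senescent one.

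Genes of the response to low oxygen and of glycolysis were open in both libraries in 24 of 43 cases (55.8%), in Norm-Pro only in 14 (32.6%) and in Hyp-Imm only in 2 (4.65%), against the same 30.6%, 23.5% and 3.86%. Of the list's promoters open in Norm-Pro, 63.2% (46.0 to 78.2) were also open in Hyp-Imm, against 56.5% of those of all genes. Hif1a, the oxygen-regulated transcription factor, had a −log10 q of 24.1 in Norm-Pro, 11.3 in Hyp-Imm, 20.3 in Norm-Sen and 8.27 in Hyp-Pro, and Ldha, lactate dehydrogenase A, 10.6, 5.31, 4.70 and 7.79. Egln1, the prolyl hydroxylase that marks Hif1a for degradation, had 15.8 in Norm-Pro, none in Hyp-Imm, 4.79 in Norm-Sen and 4.31 in Hyp-Pro. Pyruvate kinase Pkm had 12.9, none, 8.87 and 5.11, and hexokinase Hk2 9.84, none, 10.4 and 6.59. Tpi1, triosephosphate isomerase, had none in Norm-Pro, 6.08 in Hyp-Imm, 4.00 in Norm-Sen and 3.64 in Hyp-Pro. The glucose transporter gene Slc2a3 had a peak in Hyp-Imm alone, at 3.59.

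Of 32 pluripotency and stemness genes 8 were open in both (25% against 30.6% of all genes), 10 in Norm-Pro only (31.25% against 23.5%) and 0 in Hyp-Imm only, which allows up to 9.38%. Tet2, which oxidizes methylcytosine, led those of Norm-Pro only at 10.4 there. Tfcp2l1, a transcription factor of naive pluripotency, had a −log10 q of 6.46 in Norm-Pro, none in Hyp-Imm, 4.72 in Norm-Sen and 3.05 in Hyp-Pro. Esrrb had 4.09 in Norm-Pro and no peak elsewhere, and Sox2 2.29 in Norm-Pro alone. Pou5f1 and Nanog were open in neither library of the pair. Klf2, Klf4, Myc and Stat3 were open in both; Klf4 had 10.3 in Norm-Pro, 3.81 in Hyp-Imm, 9.93 in Norm-Sen and 5.20 in Hyp-Pro. Of 29 Polycomb genes 18 were open in both, among them Ezh2, Suz12 and Jarid2, 8 in Norm-Pro only and 2 in Hyp-Imm only (Phf19 and Cbx2). These are shares of 62.1%, 27.6% and 6.90%, against 30.6%, 23.5% and 3.86% of all genes.

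In fibroblast and matrix genes 15 of 46 promoters were open in both (32.6% against 30.6% of all genes), 17 in Norm-Pro only (36.96% against 23.5%) and 3 in Hyp-Imm only (6.52% against 3.86%). Thbs2, a matricellular protein gene, had a −log10 q of 11.3 in Norm-Pro, none in Hyp-Imm, 2.90 in Norm-Sen and none in Hyp-Pro. The collagen genes Col5a1 and Col1a1 had 10.8 and 7.82 in Norm-Pro and none in Hyp-Imm. The basement membrane collagens Col4a1 and Col4a2, which share 1 promoter, had 3.11 in Hyp-Imm and no peak elsewhere. Of 48 mesenchymal transcription factors 13 were open in both (27.1%), 17 in Norm-Pro only (35.4%) and 2 in Hyp-Imm only (4.17%, Foxf2 and Tbx20). The shares of all genes were the same 30.6%, 23.5% and 3.86%. Snai2 had 11.9, none, 6.61 and 2.82. Of 39 HOX genes 3 were open in both (7.69% against 30.6% of all genes), 9 in Norm-Pro only (23.1% against 23.5%) and 3 in Hyp-Imm only (7.69% against 3.86%), the last being Hoxc11, Hoxb13 and Hoxb7, at 2.35 to 3.03.

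Among housekeeping genes, 29 of 76 cytosolic ribosomal protein genes were open in both (38.2%), 31 in Norm-Pro only (40.8%) and 7 in Hyp-Imm only (9.21%). Of all genes 30.6%, 23.5% and 3.86% were, which is also the background for the other lists of this paragraph. Rpl35a had no peak in Norm-Pro, 4.76 in Hyp-Imm, 4.12 in Norm-Sen and none in Hyp-Pro, and Rps26 none, 3.33, 11.9 and 6.07. Rps29 had 14.6 in Norm-Pro, none in Hyp-Imm, 8.54 in Norm-Sen and 9.86 in Hyp-Pro. Of 45 genes of respiratory chain complexes I to III, 17 were open in both (37.8%), 21 in Norm-Pro only (46.7%) and 2 in Hyp-Imm only (4.44%). The last were Cyc1 and Ndufs5, which had peaks in both other libraries. The proteasome list gave 20 (64.5%), 9 (29.0%) and 0 of 31, and the RNA polymerase II list 19 (52.8%), 10 (27.8%) and 0 of 36. The antioxidant list gave 16 (53.3%), 12 (40.0%) and 0 of 30, and the AP-1 factors 15 (68.2%), 5 (22.7%) and 0 of 22. Of the antioxidant promoters open in Norm-Pro, 57.1% (37.2 to 75.5) were also open in Hyp-Imm, against 56.5% over all genes. For the respiratory chain this share was 44.7% (28.6 to 61.7), and for the ribosomal proteins 48.3% (35.2 to 61.6). The neural list gave 4 (18.2%), 5 (22.7%) and 1 (4.5%) of 22. Among those open in Norm-Pro and not in Hyp-Imm, the catalase gene Cat had a −log10 q of 12.5 in Norm-Pro, the proteasome lid gene Psmd13 12.8 and the complex I gene Ndufa6 15.1. A 0 in these lists allows shares of up to 9.68%, 8.33%, 10.0% and 13.6% in that order. Fos had 6.61 in Norm-Pro, none in Hyp-Imm, 6.28 in Norm-Sen and 3.04 in Hyp-Pro, while Jun and Jund were open in both.

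**Figure D5:**
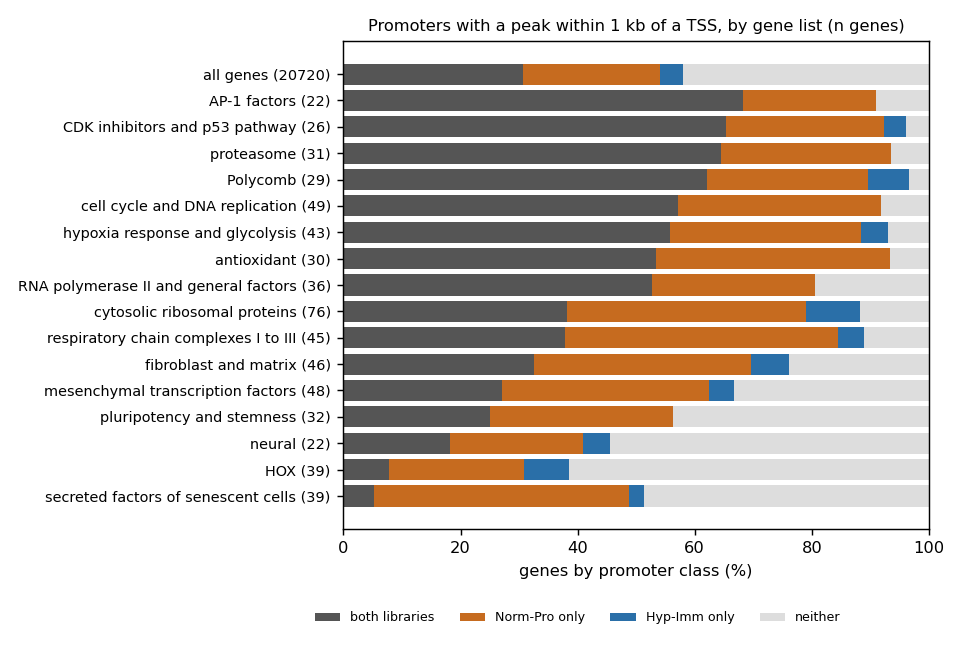
Percent of the genes of each list (horizontal axis) whose promoter had a peak in both libraries, in Norm-Pro only, in Hyp-Imm only or in neither, with the number of genes in brackets and all genes at the top. The secreted factors have the smallest part open in both, 2 of 39 genes, and the AP-1 factors the largest, 15 of 22.

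Marker genes were checked against the label. Of 18 fibroblast markers 5 had an open promoter in both (Fn1, Col1a2, Vim, Twist1 and Fbn1), 5 in Norm-Pro only and 0 in Hyp-Imm only. The other 8 (44.4%, against 42.0% of all genes) were open in neither: Col3a1, Dcn, Lum, Prrx1, Pdgfrb, Thy1, Fap and S100a4. The share open in both was 27.8%, against 30.6% of all genes. Of 8 leukocyte markers 0 were open in both, Spi1 in Norm-Pro only and Cd68 and Adgre1 in Hyp-Imm only, at −log10 q of 4.06, 3.604 and 3.25; none of the 3 had a peak in another library. Of 6 endothelial markers Kdr was open in both and Pecam1 in Norm-Pro only; of 6 epithelial ones Cdh1 in both; of 7 neural ones Map2 in both and Sox1 and Nes in Norm-Pro only; and of 6 muscle ones Myf5 and Actc1 in Norm-Pro only. Over all genes, 30.6% were open in both, 23.5% in Norm-Pro only and 3.86% in Hyp-Imm only. The part of other cell types in the differences was not tested.

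Distal motif content differed between the sets. The AP-1 site stood in 10.5% (9.30 to 11.9) of shared distal regions, 7.04% (6.82 to 7.27) of those of Norm-Pro only and 4.14% (3.91 to 4.39) of those of Hyp-Imm only. The CTCF motif, allowed 1 mismatch, stood in 10.2%, 5.22% and 2.91%. The difference between the specific sets was wider among strong peaks. Among distal regions from the 10000 strongest peaks of each library, AP-1 stood in 13.52% (12.3 to 14.9) of 2751 of Norm-Pro only, 3.66% (3.16 to 4.21) of 5192 of Hyp-Imm only and 12.1% (9.90 to 14.6) of 776 shared. CTCF stood in 11.7%, 3.35% and 11.1%. Without the regions that held a run or repeated central bases, AP-1 stood in 16.2% (14.7 to 17.9) of 2103 and 5.04% (4.27 to 5.90) of 2897, and CTCF in 13.8% and 5.01%, so the order was the same in sequence that occurs once.

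The order of the specific sets also held at most GC contents. At 40 to 50% GC, AP-1 stood in 11.2% of 410 shared regions, 7.92% of 18294 of Norm-Pro only and 4.28% of 12436 of Hyp-Imm only, and at 50 to 60% in 9.26%, 6.82% and 4.33%. At 60% or more the AP-1 shares lay together, at 2.32%, 2.77% and 2.28%. CTCF stood in 5.61%, 3.67% and 2.06% at 40 to 50% GC and in 6.10%, 6.77% and 4.98% at 60% or more. The Sp/Klf box, which is itself GC-rich, stood in 58.0%, 13.2% and 7.04% over all regions, and at 60% GC or more in 73.7%, 50.3% and 40.5%. The CRE (TGACGTCA) stood in 2.27%, 0.504% and 0.193%, and the ETS motif (CCGGAAG) in 10.3%, 2.63% and 1.15%. The Tfcp2l1 motif, allowed 2 mismatches, stood in 0.640%, 0.772% (0.704 to 0.845) and 0.563% (0.480 to 0.655). The TEAD motif (CATTCC) stood in 12.5% (12.2 to 12.8) of all regions of Norm-Pro only and 11.9% (11.6 to 12.3) of those of Hyp-Imm only, and in 15.5% (14.1 to 16.9) and 11.5% (10.7 to 12.4) of the distal regions from the 10000 strongest peaks. The order was the opposite for the AT-rich Hox13/Cdx motif (TTTATNG). It stood in 4.96% (4.77 to 5.15) of the distal regions of Norm-Pro only and 6.56% (6.27 to 6.87) of those of Hyp-Imm only. Among those from the 10000 strongest peaks it stood in 3.85% (3.16 to 4.64) and 5.59% (4.98 to 6.24). At like GC content the specific sets lay closer, at 7.6% and 8.5% for 40 to 50% GC and 3.7% and 3.9% for 50 to 60%. At 60% or more the order turned, with 1.3% and 0.83%. The NFAT motif (TGGAAAA) stood in 2.88% (2.75 to 3.02) and 3.35% (3.14 to 3.56) over all regions, and in 4.10% and 4.06% at 40 to 50% GC. By the file names the higher AP-1 and CTCF shares belong to the regions of the immortalized library.

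Tfcp2l1 ChIP-seq peaks, whose labels and file names name the same states, were few, 378 autosomal peaks in senescent normoxic and 571 in immortalized hypoxic MEFs. The sources used here do not state the genome build of these peaks, which were read as GRCm38. Of the first, 32.5% (27.8 to 37.5) overlapped a Norm-Pro peak and 20.9% (16.9 to 25.3) a Hyp-Imm peak, and of the second 23.5% (20.0 to 27.2) and 17.0% (14.0 to 20.3). At equal peak numbers Norm-Pro, the deeper library, covered 29.4% (24.8 to 34.2) of the first and 20.5% (17.2 to 24.0) of the second. The values of Hyp-Imm do not change. The same ChIP-seq peaks were counted against both libraries, so separate intervals cannot decide whether these shares differ. All peaks of the other libraries covered 29.4% and 22.4% (Norm-Sen) and 30.95% and 20.7% (Hyp-Pro).

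Around single genes, the domains with most regions were wide, 1038 to 2000 kb for the 10 leading genes. Cwc22, a splicing factor gene, had 69 regions of Norm-Pro only and 15 of Hyp-Imm only within its domain of up to 1 Mb to each side, Sox11 58 and 23, and Auts2 37 and 34. Csmd1 was the one of the 10 leading genes with more regions of Hyp-Imm only, 31 against 26. Over all genes Hyp-Imm only regions made up 32.6% of the specific regions in the domains, and in the 16 lists 25.2% (proteasome) to 35.2% (pluripotency). The autosomes were alike too: the share of Hyp-Imm peaks on a chromosome was 0.906 (chromosome 17) to 1.08 (chromosome 8) times that of Norm-Pro peaks.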

How the data were processed

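MEFs were profiled by ATAC-seq in 4 conditions and by ChIP-seq for Tfcp2l1 in 2, with 1 library each. Per the study's methods, the authors used Bowtie2 to align the ATAC-seq reads to mm10 (GRCm38), left out pairs over 2 kb, shifted read starts for the Tn5 cut and called peaks with MACS2 in each library at an FDR of 0.05; the treatment of duplicates and multiply mapped reads was not given in the sources read. The authors deposited, for each peak, the fold over background (a ratio), the −log10 p, the −log10 q and a score, which is 10 times the −log10 q cut to a whole number. The fold and the −log10 q were used here; the −log10 p and the score were not. Peak lists hold no reads, so the study's comparison of read counts was not repeated.

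Samples were grouped by their labels. Peaks on the 19 autosomes were merged where they overlapped by 1 bp; regions were placed by 39540 TSSs of 20720 protein-coding genes of GRCm38, with 1 kb to each side as the promoter. Regions were given to genes by domains of 5 kb upstream and 1 kb downstream, extended to the next domain by up to 1 Mb. Base composition and motifs were read in 200 bp at the region centre, and for genes in the 200 bp upstream of the first TSS. Depth was read from the steps of the fold at a tolerance of 0.001. Python 3.11.15, numpy 2.4.6, pandas 2.3.3, scipy 1.17.1 and matplotlib 3.10.9 were used, and the steps were tested on simulated data. With 1 library per condition no test was possible.

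Named were the 10 strongest regions of each set within 100 kb of a TSS, the 10 strongest promoters in each direction, up to 4 genes per list and direction, genes the study discusses and the 5 genes with most regions in their domain; genes named as open in both, and others of a list named for their role, were chosen after their values were seen. The pair, the 16 gene lists and 6 marker lists were chosen with earlier results of these data known. The repeat measures (30-base words, runs), the strongest-distal comparison and leaving predicted and Dux genes out of the printed sequences were chosen after seeing the data. Alternatives were equal numbers of peaks, a −log10 q of at least 5, a 500 bp gap, an overlap of at least 50% of the shorter peak, promoters of 500 bp and 2 kb, the X chromosome, repeat-masked regions left out and summit windows. Some genes and sequences are not reported here.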

Additional observations from a re-analysis of the deposited data

Results flagged for a closer look

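The X chromosome, which no comparison above uses, separated the pair from the other ATAC-seq libraries. Of all peaks, 1.08% (1.00 to 1.16) lay on it in Norm-Pro and 1.44% (1.32 to 1.57) in Hyp-Imm, against 4.44% (4.28 to 4.60) in Norm-Sen and 4.76% (4.57 to 4.96) in Hyp-Pro. Of 948 promoters on the X chromosome, 29.4%, 16.5%, 39.1% and 33.2% were open in that order, against 54.1%, 34.5%, 51.7% and 48.5% of the autosomal ones. The Y chromosome held 21, 22, 20 and 16 peaks. These shares are listed because the X chromosome lies outside the main measurement, and the labels do not give the sex of the embryos.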

How the results depend on the processing

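No paired analysis was possible because each condition has 1 library, and none could be left out. With equal numbers of peaks, 10.0% of regions were shared, 30279 were open in Norm-Pro only, and a TSS lay near 75.6% of shared, 22.3% of Norm-Pro only and 8.62% of Hyp-Imm only regions. With a −log10 q of at least 5 in both, 14.0% were shared, 11223 regions were open in Norm-Pro only and 1907 in Hyp-Imm only, the TSS shares were 84.1%, 50.6% and 20.7%, and 2118 promoters were open in both and 287 in Hyp-Imm only. Counting peaks within 500 bp as shared gave 10.1% and TSS shares of 62.9%, 9.98% and 4.04%. An overlap of 50% of the shorter peak gave 6.92%, and 73.0%, 16.1% and 9.44%. Without mostly masked regions 9.42% were shared, and the TSS shares were 75.2%, 19.1% and 10.2%. A promoter of 500 bp gave 68.8%, 13.4% and 6.10%, and one of 2 kb 72.1%, 17.0% and 9.32%. After seeing the data, regions with repeated central bases were left out (8.51% shared; 74.2%, 16.8% and 8.93% at a TSS), and so were those with a run (8.38%; 72.9%, 16.3% and 8.65%). The order of the TSS shares was the same throughout, and Norm-Pro only promoters outnumbered Hyp-Imm only ones. The 500 bp gap and the 50% overlap do not apply to counts of promoters. The file names change the names of the sets and none of the counts. The depth of Hyp-Imm limits what its missing peaks can show, and 1 library per condition leaves no measure of replicate spread.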
